A study of Mus musculus with 2 samples.

Results

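The 7 alpha- and beta-type globin genes of the mouse, Hbb-y, Hbb-bh1, Hba-x, Hba-a1, Hba-a2, Hbb-bs and Hbb-bt, were followed in RNA from embryonic forebrain. They were taken by gene ID through their symbols, and all 7 were found among the 43346 gene rows of both libraries. The study has 1 group: forebrain of healthy B6NCrl embryos aged 11.5 days, male and female pooled, with no treatment or altered allele in the labels. Replicate 1 was a pool of 109 embryos and replicate 2 a pool of 88 embryos, labelled as separate biological replicates. Each library was built from 1 cell-equivalent of total RNA by a SmartSeq protocol, in which complementary DNA is amplified before sequencing. Although titled as a single-cell assay, each library comes from pooled tissue and was read as 1 bulk sample. Pooled embryos give no spread between animals, and there was no blood sample or other tissue to set beside the forebrain.

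Haemoglobin is a tetramer of alpha-type and beta-type chains, each holding a haem group. In the mouse, red cells of the first wave come from the yolk sac and circulate while still nucleated. They make embryonic chains (zeta from Hba-x, epsilon-y from Hbb-y and beta-h1 from Hbb-bh1) together with adult alpha chains. Red cells of the later wave, made in the fetal liver, use the adult genes Hba-a1, Hba-a2, Hbb-bs and Hbb-bt. Neural cells of the forebrain are not known as a main source of these RNAs, whereas the vessels that enter the brain wall hold blood. In bulk RNA, the number of cells of a type and the RNA each of them holds cannot be told apart.

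The first 60 coding bases show which genes the reads can tell apart. The beta-type genes lie on the minus strand of chromosome 7, at chr7:103853093-103853152 for Hbb-y, chr7:103843051-103843110 for Hbb-bh1, chr7:103827816-103827875 for Hbb-bs and chr7:103813810-103813869 for Hbb-bt. The alpha-type genes lie on the plus strand of chromosome 11, at chr11:32276664-32276723 for Hba-x, chr11:32283707-32283766 for Hba-a1 and chr11:32296524-32296583 for Hba-a2. All are in exon 1, on mm10, and are given 5′ to 3′ in the sense of the gene. Capitals mark bases that differ from Hbb-bt in the beta-type genes and from Hba-a2 in the alpha-type genes.
Hbb-y: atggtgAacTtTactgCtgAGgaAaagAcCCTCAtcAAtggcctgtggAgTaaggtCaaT
Hbb-bh1: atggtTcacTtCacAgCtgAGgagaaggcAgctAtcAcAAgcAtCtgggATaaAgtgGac
Hbb-bs: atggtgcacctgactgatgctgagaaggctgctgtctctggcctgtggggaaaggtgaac
Hbb-bt: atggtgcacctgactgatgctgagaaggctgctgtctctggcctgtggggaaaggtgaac
Hba-x: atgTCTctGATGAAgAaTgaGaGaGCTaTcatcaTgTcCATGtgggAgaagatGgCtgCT
Hba-a1: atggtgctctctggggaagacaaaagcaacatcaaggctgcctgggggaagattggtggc
Hba-a2: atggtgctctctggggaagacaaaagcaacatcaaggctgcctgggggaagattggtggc
Over these bases Hbb-y differs from Hbb-bt at 19 and Hbb-bh1 at 18, and Hba-x differs from Hba-a2 at 28. Hbb-bs and Hbb-bt do not differ here, and neither do Hba-a1 and Hba-a2. Over the whole coding sequence without its stop codon, Hba-a2 and Hba-a1 match at 425 of 426 bases, and Hbb-bt and Hbb-bs at 440 of 441. Identity is 76.4% between Hbb-y and Hbb-bh1, between 73.7% and 74.4% from embryonic to adult beta-type genes, and 61.5% or 61.7% between Hba-x and the adult alpha-type genes. The split within each adult pair is therefore an estimate of the authors' quantification, whereas the embryonic genes rest on reads of their own.

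The gene counts came to 27395002 in replicate 1 and 27977544 in replicate 2. ERCC spike-in RNAs took 4.35% and 3.35% of the counts, and 8928 and 9813 genes reached 1 TPM (transcripts per 1000000 transcripts, a level per length). In each library 11 of the 12 forebrain genes listed were at or above 1 TPM, 10 of them in both. These 10 are 83.3% of the 12 read at that level in either library, against 62.5% (7207 of 11534) over all genes. Named for missing that level, Dlx2 was at 0.13 TPM in replicate 1 (22.7 TPM in replicate 2) and Six3 at 0 counts in replicate 2. None of the 12 was at 0 in both. Tubb3 of young neurons was read at 512 and 356 TPM, Nr2f1 of the forebrain wall at 115 and 149 TPM, and the progenitor gene Pax6 at 85.6 and 30.1 TPM. A level given as a pair of values is that of replicate 1 and then replicate 2.

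Globin RNA was abundant. The 7 genes held 1.41% of the gene counts in replicate 1 (95% Clopper-Pearson interval 1.41 to 1.41) and 1.65% in replicate 2 (1.65 to 1.66), a mean of 1.53% ± 0.170 (SD, n = 2). Their summed level was 32269 and 38849 TPM, 35559 ± 4653 (SD, n = 2), or 3.23% and 3.88% of all TPM. Intervals on shares of counts cover counting error only, since amplified reads were not tied to single molecules, and the gap between the libraries is far wider than them.

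Among the beta-type genes, the embryonic ones led. Hbb-y (ENSMUSG00000052187.3, chr7:103851749-103853216, minus strand), which encodes the epsilon-y chain, had 155306 counts and 12348 TPM in replicate 1, and 201694 counts and 16181 TPM in replicate 2. It was the most abundant gene of the whole table in both libraries, at 14264 ± 2710 TPM (SD, n = 2). Hbb-bh1 (ENSMUSG00000052217.5, chr7:103841637-103843164, minus strand), which encodes the beta-h1 chain, had 38748 counts and 3362 TPM, and 39902 counts and 3493 TPM. Its mean was 3428 ± 92.9 TPM (SD, n = 2), with ranks of 26 and 20. Hbb-y stood 3.67-fold and 4.63-fold above Hbb-bh1, and the ranges of these genes do not overlap.

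The adult beta-type genes were far lower. Hbb-bt (ENSMUSG00000073940.3, chr7:103812524-103813996, minus strand), for the adult beta-t chain, had 12839 counts and 950 TPM in replicate 1, and 17526 counts and 1308 TPM in replicate 2. That is 1129 ± 253 TPM (SD, n = 2). Hbb-bs (ENSMUSG00000052305.5, chr7:103826534-103828096, minus strand), for the adult beta-s chain, had 2108 counts and 180 TPM, and 2984 counts and 255 TPM, or 218 ± 53.1 TPM (SD, n = 2). It was the lowest of the 7, with ranks of 933 and 657. Hbb-bt stood 5.27-fold and 5.12-fold above Hbb-bs.

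Among the alpha-type genes, the adult ones led. Hba-x (ENSMUSG00000055609.4, chr11:32276400-32278116, plus strand), for the embryonic zeta chain, had 60309 counts and 4019 TPM, and 65882 counts and 4454 TPM. That is 4236 ± 307 TPM (SD, n = 2), with a rank of 17 in both libraries. Hba-a2 (ENSMUSG00000069917.7, chr11:32296489-32297298, plus strand) had 78298 counts and 7689 TPM, and 87825 counts and 8703 TPM. It came next after Hbb-y in both libraries, at 8196 ± 717 TPM (SD, n = 2). Hba-a1 (ENSMUSG00000069919.7, chr11:32283511-32284465, plus strand) had 38733 counts and 3721 TPM, and 45997 counts and 4456 TPM, or 4088 ± 519 TPM (SD, n = 2). Both encode the adult alpha chain, and Hba-a2 was estimated 2.07-fold and 1.95-fold above Hba-a1.

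**Figure D1:**
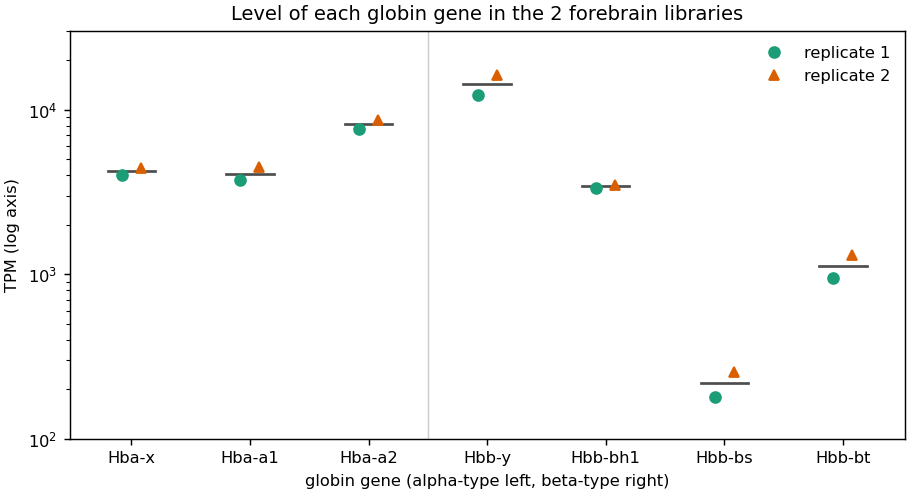
TPM on a log axis of each globin gene in replicate 1 and replicate 2, with a bar at their mean. Hbb-y is highest and Hbb-bs lowest in both libraries, and the points of Hba-x and Hba-a1 overlap.

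By mean level the order was Hbb-y, Hba-a2, Hba-x, Hba-a1, Hbb-bh1, Hbb-bt and Hbb-bs. Hba-x and Hba-a1 did not differ beyond their spread, since their ranges overlap. The other neighbours in this order had ranges apart, with 2 libraries each. The place of Hba-a1 rests on which of its transcripts are counted: with annotated protein-coding transcripts alone its mean was 1402 TPM, below Hbb-bh1.

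Embryonic genes made up 93.3% and 92.6% of the beta-type TPM, 93.0% ± 0.461 (SD, n = 2). Of the alpha-type TPM the embryonic gene Hba-x made up 26.0% and 25.3%, 25.7% ± 0.537 (SD, n = 2). The beta-type share was above the alpha-type share in both libraries, by a gap many times their SDs. The sum of the embryonic beta-type genes was 15710 and 19674 TPM, against 1130 and 1564 TPM for the adult beta-type genes. Hbb-y alone gave 73.3% and 76.2% of the beta-type TPM and 38.3% and 41.6% of all globin TPM. Of all globin TPM, 61.1% and 62.1% was embryonic. By counts, not scaled to length, the embryonic share was 92.8% (95% Clopper-Pearson interval 92.7 to 93.0) and 92.2% (92.1 to 92.3) of the beta-type counts, and 34.0% (33.8 to 34.2) and 33.0% (32.8 to 33.2) of the alpha-type counts.

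Summed over all genes, alpha-type RNA was near the level of beta-type RNA, while embryonic and adult genes each departed from it in opposite directions. The alpha-type sum was 15429 and 17612 TPM, and the beta-type sum 16840 and 21237 TPM, a ratio of 0.916 and 0.829 (0.873 ± 0.0615, SD, n = 2). The ratio of Hba-x to the embryonic beta-type genes was 0.256 and 0.226. The ratio of adult alpha-type to adult beta-type RNA was 10.1 and 8.42 (9.26 ± 1.19, SD, n = 2). Adult alpha-type RNA, at 11410 and 13158 TPM, thus stood well above adult beta-type RNA in both libraries.

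**Figure D2:**
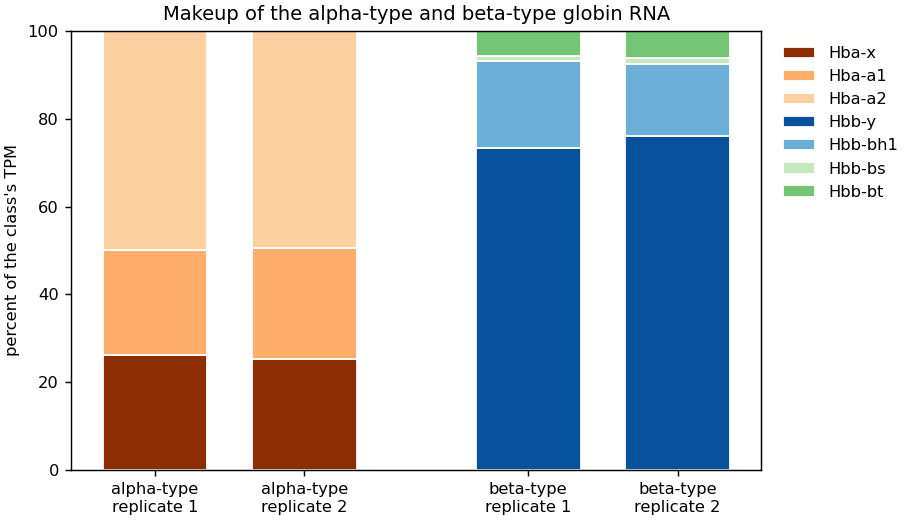
Percent of the beta-type and of the alpha-type globin TPM that falls to each gene, in replicate 1 and replicate 2. Embryonic genes fill 93.3% and 92.6% of the beta-type bars but 26.0% and 25.3% of the alpha-type bars.

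The deposited posterior SDs show how far reads could be placed. They were 0 counts for Hbb-y, Hbb-bh1 and Hba-x in both libraries. For Hba-a2 and Hba-a1 the SD was 263 and 303 counts, the same for both genes, or 0.336% and 0.345% of the Hba-a2 count and 0.679% and 0.659% of the Hba-a1 count. For Hbb-bt and Hbb-bs it was 54.8 and 67.6 counts, again the same for both genes, or 0.427% and 0.386% of the Hbb-bt count and 2.59% and 2.26% of the Hbb-bs count. The embryonic genes thus carry no such uncertainty, and Hbb-bs carries the largest of the 7 relative to its count. The authors' deposited posterior interval of Hbb-bs ran from 165 to 190 TPM and from 236 to 266 TPM, so the gap between its libraries is wider than this uncertainty.

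The transcripts were compared in windows of 100 bases, about the length that the tables take off each transcript. Sequences came from GENCODE M21, in which 8 of the 12 globin transcripts have the length that was quantified, and those of Hbb-y and Hbb-bh1, Hbb-bs-201 and Hbb-bs-202 are shorter. Hba-a2-201 shares 339 of its 455 windows (74.5%) with Hba-a1, and Hba-a1-201 shares 339 of 600 (56.5%) with Hba-a2. The Hbb-bt transcript shares 331 of 604 windows (54.8%) with Hbb-bs, and Hbb-bs-201 shares 331 of 529 (62.6%) with Hbb-bt. Hbb-y, with 534 windows, and Hbb-bh1, with 514, share none with any other gene, and neither does Hba-x. Of the windows of Hba-a1-202, none is found in that transcript alone, and the same holds for Hba-a2-202. Of those of Hba-a2-201, 20 of 455 (4.40%) are found in it alone.

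Some of the 12 transcripts are not messages for a chain. Hba-a1-202, annotated as a retained intron, took 65.8% and 65.7% of the TPM of Hba-a1, and the protein-coding Hba-a1-201 took 34.2% and 34.4%. In counts, Hba-a1-202 had 21647 and 25626, and Hba-a1-201 had 17087 and 20371. For Hbb-bs, the retained intron Hbb-bs-202 took 68.2% and 66.4% and the protein-coding Hbb-bs-201 took 31.8% and 33.6%. The counts of Hba-a2 were all assigned to its protein-coding transcript, with its retained intron at 0 counts in both libraries. Neither alpha-type retained intron has a window of its own, so their unlike shares are an estimate of the quantification. Hba-x was split between protein-coding transcripts, Hba-x-201 with 85.8% and 84.2% and Hba-x-202 with 14.2% and 15.8%. Hbb-y, Hbb-bh1 and Hbb-bt each have a single transcript.

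**Figure D3:**
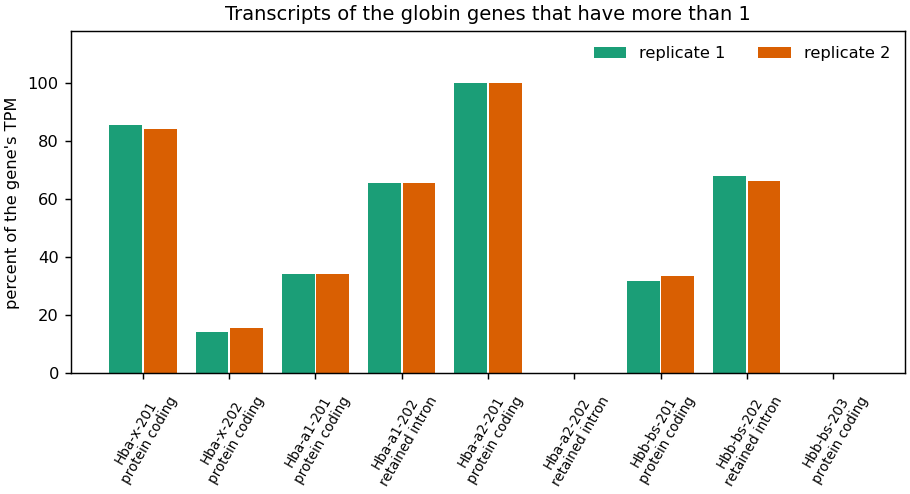
Percent of the gene's TPM held by each transcript of the globin genes with more than 1, in replicate 1 and replicate 2. The retained-intron transcripts of Hba-a1 and Hbb-bs were assigned over 65% in both libraries, and that of Hba-a2 none. Those of Hba-a1 and Hba-a2 have no window of their own.

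The makeup therefore shifts if annotated protein-coding transcripts alone are summed. Hbb-bs then averaged 71.5 TPM. Hba-a2 stood 6.04-fold and 5.69-fold above Hba-a1, and Hbb-bt 16.6-fold and 15.3-fold above Hbb-bs. Whether reads of these retained introns come from unspliced RNA, from spliced RNA of the partner gene or from elsewhere was not tested.

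In both clusters the embryonic genes come first in the direction of transcription and the adult genes after them. The alpha-type genes span 20.9 kb and the beta-type genes 40.7 kb. Within 100000 bases of the outermost alpha-type genes lie 9 other annotated genes. Of these, 3 were at or above 1 TPM in both libraries, against 7207 of all 43346 gene rows. The 3 were Snrnp25, of the minor spliceosome, at 145 and 53.4 TPM, Nprl3, whose introns hold alpha-globin enhancers, at 50.3 and 18.5 TPM, and Mpg, of DNA repair, at 22.1 and 44.8 TPM. The theta-like gene Hbq1b, inside the cluster, was at 0 counts in replicate 1 and at 85 counts (8.28 TPM) in replicate 2, and its copy Hbq1a was at 0 counts in both.

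Nearly all neighbours of the beta-globin cluster were at 0. Of 17 other annotated genes within 100000 bases, 16 were at 0 counts in both libraries, against 67.2% of all gene rows, among them all 12 olfactory receptor genes and the globin-like Hbb-bh0, Hbb-bh2 and Hbb-bh3. The pseudogene Dnajc19-ps was read at 3.51 and 3.46 TPM. A count of 0 allows up to 3 counts, or 0.110 and 0.107 counts per 1000000 gene counts, for counting error only. It is no limit on the level in the tissue, since a gene at 0 in one of these libraries can have many counts in the other, as Nr2c1 did with 0 and 1095 counts.

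**Figure D4:**
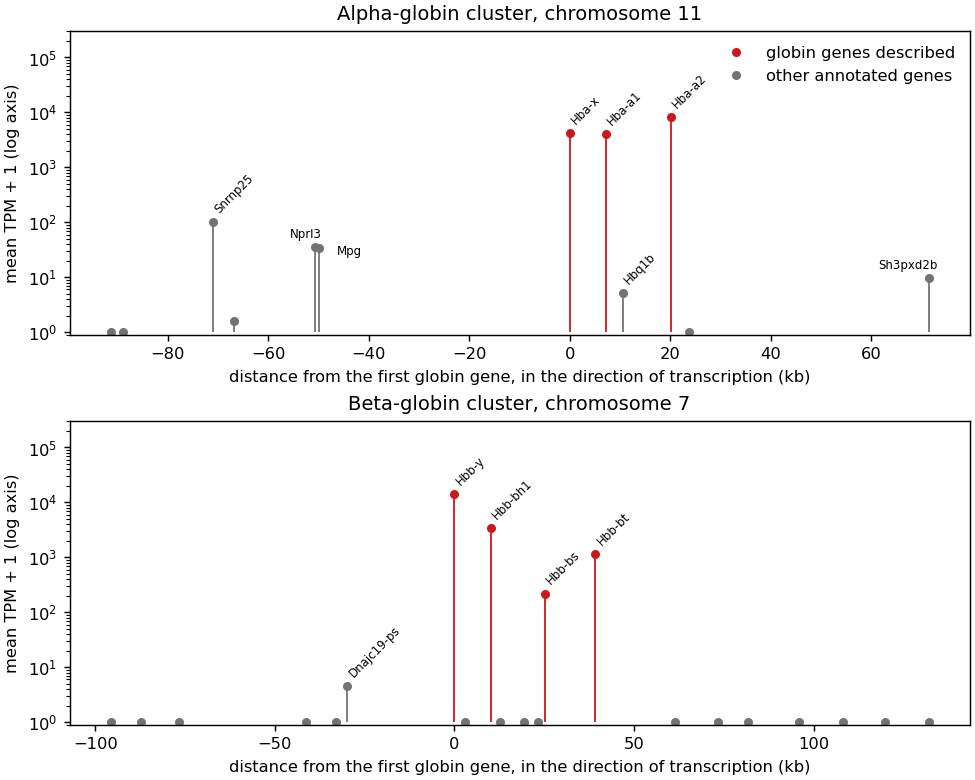
Mean TPM + 1 on a log axis of every annotated gene within 100000 bases of the alpha-type (top) and beta-type (bottom) globin genes, against distance in kb from the first globin gene in the direction of transcription. The globin genes stand between 218 and 14264 TPM, and in the beta-type panel Dnajc19-ps is the sole other gene above 0.

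RefSeq (GRCm38.p6) holds a promoter for 6 of the 7 genes, all but Hbb-bh1. Stretches before the start are printed for the highest gene of each cluster and for the lowest gene, to show the boxes known from globin promoters. Capitals mark CCAAT (or ATTGG, its other strand), TATAAA and ATAAA, and the stretches hold no match to CCNCNCCC. Its matches lie just upstream of the printed bases in Hbb-bs (-93 to -86 from the start) and further upstream in Hba-x (-83 to -76) and Hbb-bt (-107 to -100). The longer stretches are chr7:103853217-103853337 (Hbb-y, minus strand), chr11:32296362-32296488 (Hba-a2, plus strand) and chr7:103827929-103828011 (Hbb-bs, minus strand). The shorter ones, around the TATA-like box, are chr11:32276560-32276589 (Hba-x, plus strand) and chr7:103813934-103813963 (Hbb-bt, minus strand).
Hbb-y: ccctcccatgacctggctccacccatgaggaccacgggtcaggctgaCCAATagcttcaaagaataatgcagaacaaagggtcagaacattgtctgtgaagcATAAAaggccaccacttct
Hba-a2: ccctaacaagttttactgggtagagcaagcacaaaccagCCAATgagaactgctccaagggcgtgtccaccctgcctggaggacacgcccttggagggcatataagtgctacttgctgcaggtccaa
Hbb-bs: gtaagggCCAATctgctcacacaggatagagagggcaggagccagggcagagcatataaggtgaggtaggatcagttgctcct
Hba-x: tgaccatgtgtaTATAAAggagacactggg
Hbb-bt: cagcATTGGgtaTATAAAgctgagcagggt
The 247 bases that can be aligned before the RefSeq starts of Hba-a2 and Hba-a1 are identical. GENCODE, however, starts Hba-a1-201 161 bases before the RefSeq start, and Hba-a2-201 3 bases before it. Much of the matching stretch is thus exon in the quantified Hba-a1-201 (699 bases, against 554 for Hba-a2-201). The 2.07-fold and 1.95-fold estimates therefore compare gene models that differ over this stretch. In the 250 bases before the start, searched on both strands, CCAAT was in 5 of 6 globin promoters and in 33.8% of all 32851 promoters. GATA was in 6 of 6 and in 53.6%, and CCNCNCCC, a form of the CACCC box, in 3 of 6 and in 45.9%. TATAAA was in 2 of 6 and in 12.4%, and ATAAA, which lies inside TATAAA, in 3 of 6 and in 37.3%. The printed Hba-a2 and Hbb-bs stretches hold TATAAG (within catataag), which differs from TATAAA in its last base. This form was not searched for and is left in lower case, so these promoters are not shown to lack a TATA-like box. The shorter CACCC was not searched for either, and it stands in lower case in the printed Hbb-y and Hba-a2 stretches (within ccaccc). Those promoters are thus not shown to lack a CACCC box. A match is a run of letters and not a bound site. The printed Hba-x and Hbb-bt stretches lie within a GENCODE first exon, because GENCODE starts these transcripts upstream of RefSeq.

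Globin levels moved little between the libraries. The difference, replicate 2 minus replicate 1 on log2(TPM + 1), was 0.39 for Hbb-y, 0.06 for Hbb-bh1, 0.15 for Hba-x, 0.18 for Hba-a2, 0.26 for Hba-a1, 0.46 for Hbb-bt and 0.50 for Hbb-bs. None of the 7 reached a 2-fold difference, against 3940 of 7680 genes (51.3%) with a mean of at least 10 TPM. Spread falls with level, however, and none of the 139 genes with a mean of at least 1000 TPM differed 2-fold. Their median absolute difference was 0.18, and the 6 globin genes among them had a median difference of 0.22.

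All 7 globin genes were higher in replicate 2, with a median difference of 0.26. Of the 1658 genes with a mean of at least 100 TPM, 841 (50.7%) were higher in replicate 2, and their median difference was 0.01. With 1 library per pool there is no test of this, and genes read from the same cells are not independent of each other. Spike-ins took 8.44% and 6.56% of TPM, which lowers every gene's TPM a little more in replicate 1. All 7 differences stayed above 0 under each other scaling tried, but on counts per 1000000 gene counts that of Hbb-bh1 was 0.01, about its counting error, and that of Hba-x was 0.10. With spike-ins left out of the scaling, Hbb-bh1 differed by 0.03. What part blood content, spike-in dose or amplification has in them was not tested.

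**Figure D5:**
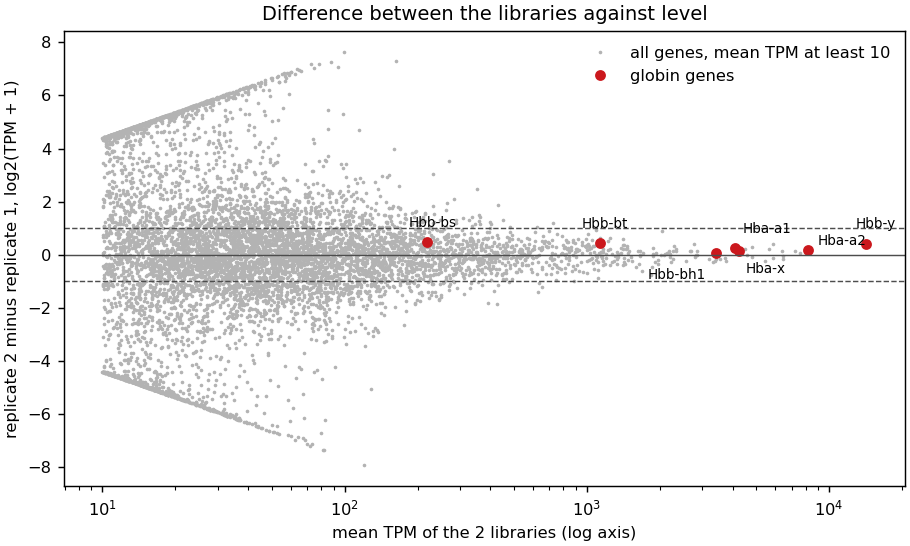
Difference between the libraries (replicate 2 minus replicate 1, log2 of TPM + 1) against mean TPM on a log axis, for 7680 genes with a mean of at least 10 TPM, with the 7 globin genes marked. The globin points lie between 0.06 and 0.50, inside dashed lines at a 2-fold difference.

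Other red-cell genes were read less evenly than the 7 globins, but about as evenly as genes at large. Of 44 matched genes on the lists of erythroid transcription and of red-cell structure, 17 were at or above 1 TPM in both libraries, 3 in replicate 1 alone, 8 in replicate 2 alone and 16 in neither. The 17 are 60.7% of the 28 read at that level in either library, against 62.5% (7207 of 11534) over all genes. Over the 27 with a mean of at least 1 TPM the median difference was 0.09, against 0.12 over all 11107 such genes, of which 53.1% were higher in replicate 2. Some of those 17 are also used widely outside red cells. Of the 44, all but Prdx2 (mean 1466 TPM, difference 0.27) had a mean below that of Hbb-bs, the lowest globin. Since spread falls with level, the contrast with the globins cannot be told apart from one of level.

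Levels of the factors that act on globin genes varied. Over 20 genes of erythroid transcription and globin switching the summed level was 290 and 179 TPM. Of them, 6 were at or above 1 TPM in both libraries, 2 in replicate 1 alone, 3 in replicate 2 alone and 9 in neither. The 6 are 54.5% of the 11 read at that level in either library, against 62.5% over all genes. Over all 43346 gene rows, 31812 were in neither. Bcl11a, a repressor in globin switching that neurons also use, was read at 75.5 and 65.9 TPM. Ldb1, which bridges the locus control region and promoters, was at 84.4 and 16.6 TPM, and its partner Lmo2 at 44.9 and 47.8 TPM. The 3 main erythroid factors, chosen after their values were seen, were read at few counts in at least 1 library: Klf1 had 867 counts (27.0 TPM) in replicate 1 and 28 counts (0.88 TPM) in replicate 2, Gata1 had 2 counts and 0, and Tal1 had 4 counts and 0. Whether the low input limits these counts was not tested, and they do not show absence from the cells.

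Genes of the red-cell membrane, chaperones and late erythroid cells summed to 1676 and 2099 TPM, with 11 of 24 matched genes at or above 1 TPM in both libraries. These 11 are 64.7% of the 17 read at that level in either library, near the 62.5% over all genes. The peroxiredoxin gene Prdx2, abundant in red cells but used widely, gave most of this at 1329 and 1602 TPM. The carbonic anhydrase gene Car2 was at 93.8 and 45.9 TPM, and Bpgm, which makes the red-cell effector bisphosphoglycerate, at 90.1 and 48.5 TPM. By contrast the membrane gene Slc4a1 (band 3), picked out after its values were seen, was at 0.17 and 30.1 TPM. The median difference of the 17 genes with a mean of at least 1 TPM was 0.66, and 11 of them (64.7%) were higher in replicate 2, with no test of the gap to the 53.1% of all genes.

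Haem synthesis, which supplies the globins' prosthetic group in every cell, was detected over its whole list. All 11 genes were at or above 1 TPM in at least 1 library, 8 in both and 3 in replicate 2 alone. The 8 are 72.7% of the 11, against 62.5% over all genes. The list summed to 447 and 546 TPM with a median difference of 0.73, against 0.12 over all genes. Single differences ran from -3.38 to 3.84, and 54.5% of the list was higher in replicate 2, against 53.1% of all genes. Of the middle steps, Urod was at 70.7 and 152 TPM and Uros at 95.03 and 57.6 TPM. Alas2, the erythroid form of the first enzyme, was at 26.4 and 44.5 TPM. Of 9 genes for clearing haemoglobin and haem, 2 were at or above 1 TPM in both, or 50% of the 4 read at that level in either library. These were the haem oxygenase gene Hmox2 at 111 and 72.8 TPM and the haemopexin receptor gene Lrp1 at 57.8 and 15.5 TPM.

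Markers of other cells of the blood and vessels were present too. Of those at or above 1 TPM in either library, 62.5% of endothelial, 50% of platelet and 40% of myeloid markers were so in both. Over all genes this share was 62.5%. Endothelial markers summed to 164 and 117 TPM, with 5 of 10 at or above 1 TPM in both libraries and Cldn5 and Emcn at 0 counts. Esam was read at 44.8 and 47.3 TPM, Egfl7 at 31.6 and 31.5 TPM and Kdr at 14.3 and 17.3 TPM. Platelet markers summed to 231 and 105 TPM, mostly Pf4 at 194 and 75.5 TPM. The other platelet gene in both libraries, Itga2b, went the other way at 1.79 and 24.9 TPM, the median difference of the 4 with a mean of at least 1 TPM was 0.54, and Gp6 and Treml1 were at 0 counts. Myeloid markers summed to 122 and 53.0 TPM, mostly Fcer1g at 65.8 and 23.3 TPM, with Csf1r at 15.7 and 2.86 TPM, Lyz2 (chosen after its values were seen) at 0.04 and 25.7 TPM, 2 of 9 in both libraries and Ptprc and C1qa at 0 counts. All 3 sums were higher in replicate 1 and the globin sum in replicate 2, though single markers went both ways, and their part in the globin values was not tested. Replicate 1 was also higher for the sums of the forebrain (941 and 736 TPM), erythroid transcription (290 and 179 TPM) and clearance lists (169 and 165 TPM). Replicate 2 was higher for those of red-cell structure (1676 and 2099 TPM), haem synthesis (447 and 546 TPM) and the other globins (0 and 8.33 TPM).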

How the data were processed

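The authors deposited a gene and a transcript table per library, on mm10 with gene annotation release M4 per the deposited text. Per the file headers these hold expected counts, TPM, FPKM (not used here) and the percent of a gene's TPM per transcript. The deposited posterior SDs and limits count as a score. Aligner, quantifier and use of strand were not given in the sources used here. Symbols and coordinates came from GENCODE M21, which matched 42462 of 43346 gene IDs (98.0%). Detection means at least 1 TPM. Differences use log2(TPM + 1), which understates changes of low genes. With 1 group of 2 libraries no test was possible. The members and gene lists were chosen with earlier results of these data known. Named genes are the 7 members, the 3 highest of each list in both libraries, the gene nearest in level to each member and the 2 highest neighbours of each cluster, and others are marked. A gene that this rule takes is not reported here. Ahsp, Eraf, Hbb-b1 and Hbb-b2 matched no symbol. Coding-sequence identity and shared windows were added after the data were seen, in place of protein identity. Python 3.11.15, pandas 2.3.3, scipy 1.17.1 and Biopython 1.88 were used.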

Additional observations from a re-analysis of the deposited data

How the results depend on the processing

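Of 109 values under other settings, 78 stayed within 1 SD of the libraries (counting error for differences and for the 2-fold share, 1.5 times for counts of genes), 31 moved further and none reversed. On counts per 1000000 gene counts, the summed level was 15305 (35559 TPM as reported), the embryonic share of alpha-type RNA 33.5% and the ratio of alpha-type to beta-type RNA 0.805. With protein-coding transcripts alone, the embryonic shares were 93.7% of beta-type and 30.6% of alpha-type RNA, and the ratio was 0.737. All 28 differences between the libraries, 21 under other scalings and the rest with a pseudocount of 0.1, stayed above 0. The share of all genes differing 2-fold was 60% at a mean of at least 1 TPM, 49.2% with no filter and 0% at a mean of at least 1000 TPM. Leaving out either library gives the values of the other, as printed. With 2 libraries, each value lies within 1 SD of their mean by construction. For levels, shares and ratios these values are among the 78, and there they are no sign of stability. No paired analysis was possible because there is 1 group. Reads of near-identical adult genes, and of overlapping or antisense genes where strand was not used, cannot be told apart with certainty.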

Other observations

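The protein-coding genes nearest in level to the globins, by Euclidean distance on log2(TPM + 1) over both libraries, give a scale for these levels. Hba-x and Hba-a1 lay nearest to Eef1a1, the translation elongation factor, at distances of 0.03 and 0.10. Hbb-bh1 lay nearest to the ribosomal protein gene Rpl41 (0.17), and Hbb-y and Hba-a2 to the mitochondrial gene mt-Atp6 (1.39 and 0.26). The adult beta-type genes lay near neuronal or widely used genes: Hbb-bt to the calmodulin gene Calm2 (0.11), and Hbb-bs to the tubulin gene Tubb2a (0.03), at 179 and 250 TPM. Likeness in level over 2 libraries is a description and says nothing of shared control.

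Apart from Hbq1b, the other globins were at or near 0. Of 8 matched genes, Hbq1b alone reached 1 TPM, and in replicate 2 alone (8.28 TPM). At 0 counts in both libraries were 6 of the 8 (75%), near the 67.2% of all gene rows. Mb of muscle, the neuronal Ngb and the widely used Cygb had at most 1 count in either library.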
